A study of Homo sapiens with 16 samples.

Results

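Of the 8 lung cancer cell lines in the series, the 4 with the highest level of CDH1 relative to VIM (H1437, H358, H23 and A549) were set against the other 4 (H661, A427, H460 and H1703). The score of a line was the mean of the 3D and 2D values of 1 CDH1 probe set minus the same mean of 1 VIM probe set. The groups were thus chosen by measured CDH1 and VIM values, and the 4 upper and 4 lower lines gave 8 of the 16 arrays each. The labels give the 8 as lung cancer cells, described as untreated, and each line was grown on Matrigel, a basement membrane extract, spread thinly and with 2% more in the medium (3D), and on tissue culture plastic (2D), at similar density and in similar media. Each line gave 1 array per culture, total RNA on the U133 Plus 2.0 array of Affymetrix. The line is the replicate, n = 4 against 4, and a difference within a single line has no replicate check. All values are log2 ratios of a probe set to its own reference, so values of different genes cannot be set against each other. The working names of the groups were epithelial-like and mesenchymal-like. The epithelial markers below were high as a set in H1437 and H358 alone, and the mesenchymal markers were mixed in both groups. The groups are therefore called the upper and the lower lines.

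CDH1 encodes E-cadherin, the calcium-dependent adhesion molecule that holds epithelial cells together at adherens junctions. VIM encodes vimentin, the intermediate filament of mesenchymal cells. In the epithelial-mesenchymal transition, transcription factors of the ZEB, SNAI and TWIST families repress CDH1 and other junction genes, and cells gain motility and matrix genes. Carcinoma lines are found at both ends of this range and in between.

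The values that chose the groups are given as a description and were not tested. In H1437 CDH1 stood at 5.69 in 3D and 5.31 in 2D, and VIM at -6.64 in both cultures, the lowest value in the data. This value, a linear ratio of 0.01 reached 297 times, acts as a floor, and the score of H1437 rests in part on it. H358 had CDH1 at 6.93 in 3D and 5.93 in 2D, with VIM at -2.41 and -1.75. H23 had CDH1 at 0.19 in 3D and 2.46 in 2D, and A549 at 2.17 in 3D and -0.22 in 2D, with VIM between -0.04 and 0.03 in these 4 arrays. The VIM values of H23 and A549 lay within the range of the lower lines, and these lines ranked above them through CDH1. In 3D the CDH1 value of H23 was below that of H661. Among the lower lines, CDH1 stood at 1.89 in 3D and -2.05 in 2D in H661, and at -0.94 in 3D and -1.74 in 2D in A427. It was between -4.61 and -4.32 in the 4 arrays of H460 and H1703. VIM lay between -0.64 and 0.53 in the 8 arrays of the lower lines. The resulting scores were 12.15 in H1437, 8.51 in H358, 1.32 in H23 and 0.99 in A549, against -0.46 in H661, -1.85 in A427, -3.92 in H460 and -4.49 in H1703. The line just inside the threshold, A549, was 1.45 above the line just outside, H661, while the largest step, 7.19, lay between H358 and H23.

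**Figure D1:**
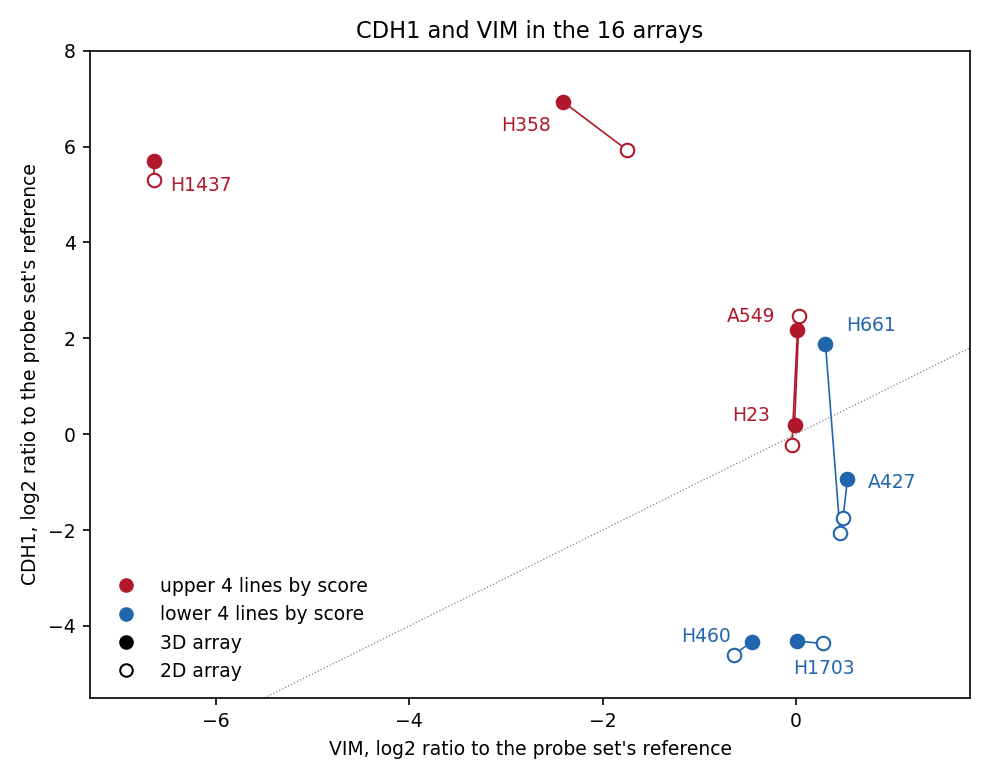
CDH1 (y axis) against VIM (x axis), both as log2 ratios to the probe set's reference, in the 16 arrays. Red points are the upper 4 and blue points the lower 4 lines, filled for 3D and open for 2D, joined within a line, and the dotted line marks equal values. H1437 and H358 stand apart at the top left, and the arrays of H23 and A549 lie close to those of the lower lines on the VIM axis.

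Which lines count as upper rested in part on the probe set and the culture. On the other CDH1 probe set, H1437 had 5.26 in 3D and 5.0 in 2D and H358 6.13 and 5.83, and apart from the 2D array of H23 (1.48) all other arrays were below 0. With that probe set H460 took the place of A549 among the upper 4. With the 3D arrays alone H661 took the place of H23, and the 2D arrays alone gave the same groups. VIM also differed by probe set, and no grouping by the other VIM probe set was made. On it H1437 had -3.13 in 3D and -2.64 in 2D, H358 -2.58 and -1.92, H23 -0.10 and 0.46, and A549 0.22 and -0.21. The lower lines were less alike on it, with 2.12 and 1.43 in H661, 2.31 and 2.04 in A427, -0.18 and -1.07 in H460, and 0.10 and 0.18 in H1703. The 3D minus 2D difference of CDH1, which the rule did not use, was 0.38 in H1437, 1.0 in H358, -2.27 in H23 and 2.40 in A549, against 3.94 in H661, 0.80 in A427, 0.28 in H460 and 0.05 in H1703. These differences overlapped between the groups, and in H23, A549 and H661 they were larger in size than the step of 1.45 between the groups.

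Markers of both cell states were checked line by line. Of 15 tested epithelial markers, 12 had H1437 and H358 both above the other 6 lines, against 5.37% of all genes without a filter. Among the 12, RAB25 and GRHL2 had passed the filter on low values only through arrays of H1437 and H358, so they had to be highest there. The median of the 15 log2 ratios was 5.55 in H1437 and 5.10 in H358, and in H23 and A549 it was -0.50 and -0.59. Among the lower lines it was -0.64 in H661, -0.02 in A427, -0.57 in H460 and -1.14 in H1703. A549 and H23 thus sat within the range of the lower lines. Of 15 tested mesenchymal markers, 3 (ZEB1, TWIST1 and COL5A1) were lowest in H1437 and H358, against 9.17% of all genes without a filter. In H358, however, CDH11 stood at 6.92, SNAI2 at 6.11, SPARC at 4.45 and LOX at 3.73. Of the 15, 7 were above their reference in H358, 2 in H1437, 12 in H23 and 11 in A549. The lower lines had 9 in H661, 4 in A427, 5 in H460 and 4 in H1703. The mesenchymal median was -0.45 in H1437 and -0.27 in H358. It was 0.29 in H23 and 1.46 in A549, against 0.81 in H661, -0.04 in A427, -0.17 in H460 and -0.37 in H1703, so the highest median belonged to an upper line. A427, a lower line, carried several epithelial genes. The adhesion molecule gene EPCAM stood at 3.65 in 3D and 3.37 in 2D in A427, close to H1437 (3.91 and 4.12) and H358 (4.36 and 4.29), and far above H23 (-2.46 and -2.79) and A549 (-4.55 and -6.20). In H661, H460 and H1703 EPCAM had 1.64 and 0.86, -6.08 and -6.29, and -6.04 and -5.86.

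**Figure D2:**
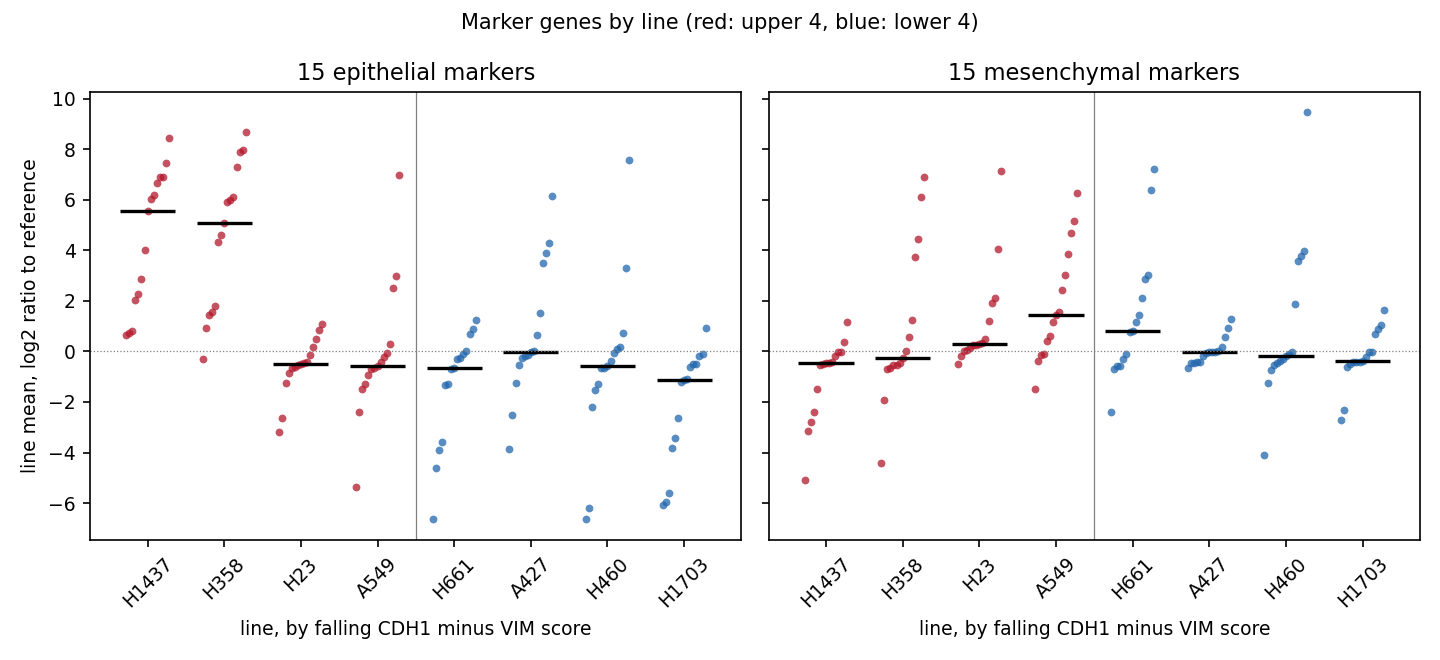
Line means (log2 ratio to reference, y axis) of 15 epithelial (left) and 15 mesenchymal markers (right) in the 8 lines, ordered by falling score. Points are genes, black bars their median, red the upper and blue the lower lines. The epithelial medians are above 5 in H1437 and H358 and between -1.14 and -0.02 in the other 6 lines.

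Because of this pattern, H1437 and H358 are described against the other 6 lines before the groups are compared, and this carries no test beyond the counts. Without any filter on low values, 1061 of 19773 genes had both lines above the other 6 (5.37%) and 1814 had both below (9.17%). Against this background, 12 of 24 genes of epithelial adhesion and junctions had both lines above and 0 had both below. The same held for 8 of 16 epithelial transcription and splicing factors (1 below), 9 of 14 membrane serine proteases and their inhibitors, 6 of 19 genes of polarity and epithelial vesicle traffic, 4 of 13 keratins and 8 of 20 genes of mucins and the mucosal surface. Outside the epithelial lists, 10 of 31 interferon-stimulated genes had both lines above. The pair was set apart by the epithelial markers above, and markers such as CLDN4, CLDN7, DSP, KRT8, ELF3 and RAB25 are also members of these lists. The counts in the epithelial lists were thus partly fixed by that choice, and they are a description and no support. The lists were chosen with earlier results of these data known.

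RAB25, a small GTPase of epithelial recycling endosomes, parted these lines from the rest in every array. It stood at 6.95 in 3D and 6.87 in 2D in H1437 and at 8.34 and 7.64 in H358, and in the 12 arrays of the other lines it lay between -1.31 and -1.21. Its probe set passed the filter on low values through the arrays of these 2 lines alone. The promoter is shown because E-box elements of the sequence CACCTG are the sites that ZEB and SNAI repressors bind. It covers 250 bases before the start of the gene on the plus strand, chr1:156060910-156061159 of GRCh38.p14 in RefSeq, with the 1 match to CACCTG in capitals (both strands were searched, so CAGGTG counts too, and no match overlaps one of the metal response cores below).

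RAB25: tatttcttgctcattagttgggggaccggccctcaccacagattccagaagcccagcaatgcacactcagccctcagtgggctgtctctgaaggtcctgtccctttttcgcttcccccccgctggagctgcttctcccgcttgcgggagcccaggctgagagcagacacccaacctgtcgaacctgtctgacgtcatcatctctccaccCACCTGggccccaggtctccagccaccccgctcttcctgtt

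A CACCTG match lay in that window in 17.5% of 27305 promoters. It was found in 8 of 20 epithelial list genes with H1437 and H358 above the other 6 that had an entry, and in 9 of 22 other tested epithelial list genes, shares of 40.0% and 40.9%. The match is a description of the letters and not of a bound site.

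Among the other genes with this pattern, ESRP1, the splicing regulator of epithelial isoforms, had line means of 8.44 in H1437 and 8.68 in H358. A427 followed with 6.16, and the remaining 5 lines lay between -0.66 and -0.11. The serine protease ST14 (matriptase) and its inhibitor SPINT1 showed the same order, with ST14 at 6.91 and 6.01, SPINT1 at 6.17 and 5.74, and A427 next at 3.90 and 2.74. PRSS8 (prostasin), which acts with matriptase, had 6.38 in H1437 and 4.55 in H358 and lay between -1.31 and -1.05 elsewhere. GRHL2, a transcription factor that maintains epithelial junctions, had 2.28 and 1.8, against -0.64 to -0.48. KRT7, a keratin of simple epithelia, stood at 7.44 and 7.29, and A549 was close behind at 6.99. Of the transcription factors of the epithelial-mesenchymal transition, ZEB1 had -3.14 in H1437 and -1.93 in H358, against -0.69 to 1.46 in the other 6 lines, of which A549 had the highest. TWIST1 had -5.07 and -4.41, with H460 next at -4.08 and the other lines between -0.59 and 1.93. SNAI2, the gene of Slug, went the other way in H358, at 6.11, and was at -0.01 in H1437.

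Of 28 mitosis genes, 10 were lowest in both H1437 and H358, against 9.17% of all genes without a filter. Only 1, the cyclin gene CCNB2 (1.03 and 1.59), was highest in both, against 5.37%. The list median was -0.83 in H1437 and -0.29 in H358, against -0.04 to 0.34 in the other lines. The CCNB2 value rests on 1 probe set. Between the 4 upper and 4 lower lines that probe set differed by 0.95, and the gene's other probe sets by -0.07 and -0.02. For NDC80, a kinetochore subunit, the line means were -0.91 in H1437 and -0.92 in H358, against -0.52 to 1.02. For interferon-stimulated genes, 10 of 31 members were highest in both lines and 0 were lowest in both. The median over tested members was 0.31 in H1437 and 2.81 in H358, against -0.88 to 0.15 in the other lines. IFI35, a member that went the other way, was lowest in H1437, at -2.21. MX1, an antiviral GTPase, had 3.81 in H1437 and 5.14 in H358, against -0.74 to -0.08. OAS2, a sensor enzyme of double-stranded RNA, had 2.71 and 3.09, against -0.49 to 0.41. Over all 14954 tested genes the pair with the highest Pearson correlation of line means was H1437 and H358 (0.32), but the next was A549 and H460 (0.24), 1 line of each group. Correlations ranged from -0.16 to 0.32 within the upper lines, from -0.21 to 0.18 within the lower lines and from -0.27 to 0.24 between the groups. They are a description across genes of arrays that share a platform.

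The 4 upper lines were then compared with the 4 lower lines over all genes. In line means, the mean of the 3D and 2D arrays, 0 of 14952 tested genes other than CDH1 and VIM passed (0% called; limma with Benjamini-Hochberg adjustment, smallest adjusted p = 0.459). At an unadjusted p under 0.05 there were 864 genes, 373 higher and 491 lower in the upper lines. All 4 upper lines lay above all 4 lower lines in 201 genes (1.34%) and below them in 265 (1.77%), and with each array's median subtracted these counts were 263 and 227. Of the genes tested, 150 had passed the filter only through arrays of upper lines and 110 only through arrays of lower lines. The genes named next have the smallest p among those that did not overlap between the groups. None was called, and their adjusted p ranged from 0.459 to 0.702. Of those higher in the upper lines, 8 (PMEPA1, TNC, PFKFB3, MAP3K1, MT2A, CEACAM1, MT1X and THSD4) were at or above their reference in arrays of upper lines alone. Of those lower there, 7 (PDCD6P1, MANEA, GPM6B, CDC25C, PPIP5K2, IFI35 and WDSUB1) were so in arrays of lower lines alone. These 15 passed the filter only through the group where they are high, so their direction and lack of overlap are a description and no support.

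TNC, the matrix glycoprotein tenascin-C, had a mean log2 ratio of 3.58 ± 1.93 in the upper lines and -2.54 ± 0.34 in the lower lines (SD, n = 4 each). Its arrays read 0.79 in 3D and 1.88 in 2D in H1437, 5.90 and 6.17 in H358, 3.36 and 4.02 in H23, and 3.81 and 2.68 in A549. In the lower lines the 8 arrays lay between -2.91 and -1.87. No array of one group reached the other, and the difference was 6.12 (SE 0.90), although other probe sets gave 1.89 and 0.08. PMEPA1, a membrane protein induced by TGF-beta that dampens SMAD signalling, differed by 4.23 (SE 0.62). It stood at 1.05, 2.32, 2.87 and 2.22 in H1437, H358, H23 and A549, against -3.05, -0.99, -3.20 and -1.22 in H661, A427, H460 and H1703. Its other probe sets gave 4.48 and 5.33. For both genes H23 and A549 lay above H1437.

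The adhesion receptor genes CEACAM1 and CD44 followed the same split. CEACAM1 had line means of 1.39, 3.48, 1.55 and 2.28 in the upper lines, against -0.96 to -0.85 in the lower lines. The difference was 3.09 (SE 0.53), with 0.13 to 1.79 on its other probe sets. CD44, the hyaluronan receptor, had 2.61, 2.50, 0.19 and 3.69, against -2.03 to -0.36, a difference of 3.55 (SE 0.78, limma adjusted p = 0.702). Other CD44 probe sets gave -0.01 to 5.26. CD44 is a gene often listed for mesenchymal cells, and it stood higher in the upper lines. PFKFB3, an enzyme that sets the level of the glycolytic activator fructose-2,6-bisphosphate, differed by 2.75 (SE 0.46), and the hypoxia-induced gene NDRG1 by 3.93 (limma adjusted p = 0.459). The kinase gene MAP3K1 differed by 1.63 (SE 0.27), HSF2BP, a meiotic recombination gene, by 1.07 (SE 0.18), and THSD4, a microfibril-associated matrix gene, by 3.42 (SE 0.61), with -0.01 to 3.12 on its other probe sets.

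Metallothioneins, small cysteine-rich proteins that bind zinc and copper and are induced by metals, were the family with the most named genes. MT1F, MT2A, MT1X, MT1HL1 and MT1H differed by 2.47 (SE 0.40), 2.89 (SE 0.49), 2.88 (SE 0.50), 2.67 (SE 0.47) and 2.80 (SE 0.50). MT2A stood at 1.07 in 3D and 1.14 in 2D in H1437, 1.10 and 1.40 in H358, 0.55 and 0.65 in H23, and 1.02 and 0.25 in A549. Among the lower lines it was -3.76 and -2.52 in H661, -2.05 and -2.44 in A427, -1.84 and -1.92 in H460, and -0.30 and -1.14 in H1703. H1703 came closest to the upper lines. Of 14 probe sets for 10 metallothionein genes, 8 probe sets for 7 genes had all upper lines above all lower lines, by 2.39 to 3.17. Over all genes tested the share was 1.34%. All 8 carry the suffix x, which marks probes that match several transcripts, so they cannot count as independent genes. MT1F gave 1.34 with overlap on its other probe set. The differences between the groups in the 3D minus 2D value of those 8 probe sets were small, from -0.42 to 0.06.

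Promoters are shown for MT2A and MT1X, named members with an entry, because metallothionein genes are controlled through metal response elements with the core TGCNCNC. The windows hold the 250 bases before the start on the plus strand, chr16:56608334-56608583 and chr16:56682220-56682469 of GRCh38.p14 in RefSeq, with core matches on either strand in capitals, none of which overlaps a CACCTG match.

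MT2A: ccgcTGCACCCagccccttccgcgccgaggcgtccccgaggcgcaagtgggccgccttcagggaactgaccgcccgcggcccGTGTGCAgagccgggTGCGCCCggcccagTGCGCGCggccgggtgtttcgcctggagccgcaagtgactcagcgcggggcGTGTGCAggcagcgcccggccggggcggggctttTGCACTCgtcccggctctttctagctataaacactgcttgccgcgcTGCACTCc

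MT1X: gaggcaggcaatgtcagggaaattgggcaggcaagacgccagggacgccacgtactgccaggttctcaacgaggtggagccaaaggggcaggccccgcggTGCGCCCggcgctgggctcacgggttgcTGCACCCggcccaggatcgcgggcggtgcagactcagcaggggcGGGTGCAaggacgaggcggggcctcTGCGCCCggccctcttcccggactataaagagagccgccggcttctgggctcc

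The core was found 7 times in the MT2A window and 4 times in that of MT1X. A window with 4 or more matches was found in 1.7% of 27305 promoters and for 4 of 4 metallothioneins with an entry. These include MT4, whose probe set was at or above its reference in 0 of 16 arrays. Matches were searched as letters, and nothing was measured at these promoters.

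Among genes lower in the upper lines, MANEA, an endomannosidase of the Golgi, had -0.86 ± 0.12 in the upper and 1.08 ± 0.54 in the lower lines, a difference of -1.93 (SE 0.28), and its other probe sets gave -1.69 to -0.71. CDC25C, the phosphatase that activates CDK1 at mitotic entry, had -0.40 ± 0.12 and 0.83 ± 0.30, with other probe sets at -1.01 and -0.13. IFI35, an interferon-induced gene, had -1.20 ± 0.80 and 0.91 ± 0.58 (difference -2.11, SE 0.44), against the direction of MX1 and OAS2. The pseudogene PDCD6P1 differed by -3.41 (SE 0.43), the proteolipid family gene GPM6B by -1.92 (SE 0.34, other probe sets -0.83 to -0.17) and CFAP300, a gene of motile cilia, by -2.32 (SE 0.47). The inositol pyrophosphate kinase gene PPIP5K2, the apoptosis inhibitor NAIP, the thiolase ACAT2, WDSUB1 and the zinc finger gene ZNF564 differed by -1.04, -1.0, -1.53, -1.38 and -0.57. Of the listed genes, CCN2, a matricellular target of YAP and TEAD, had -3.91, -3.31, -0.75 and -0.96 in the upper lines, against 3.35, 4.22, 2.39 and -0.09 in the lower lines, a difference of -4.70 (limma adjusted p = 0.729). H1703 lay nearest to the upper lines.

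**Figure D3:**
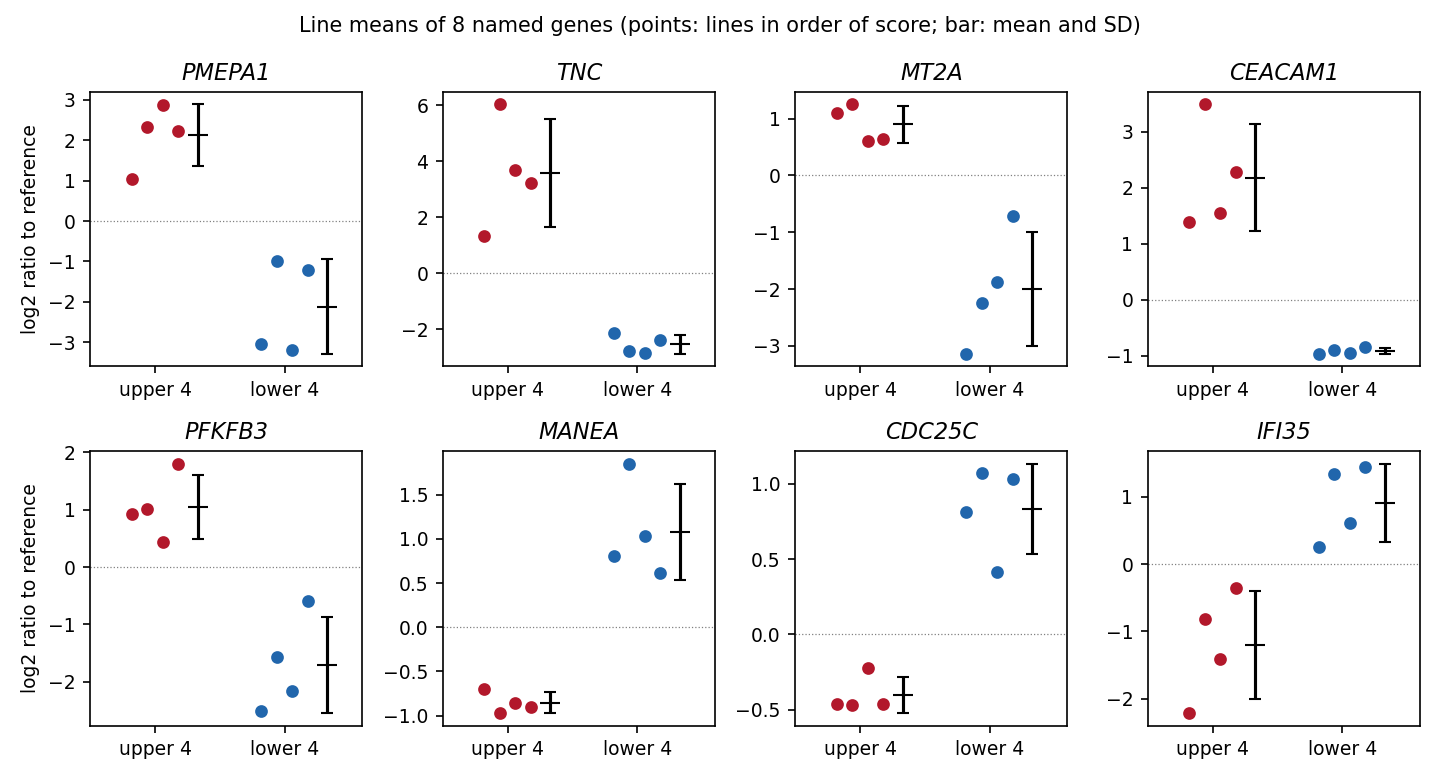
Line means (log2 ratio to reference, y axis, scaled per panel) of 8 named genes in the upper (red, left) and lower lines (blue, right). Points are lines in order of score, and black bars give the mean and SD of 4 lines. The groups do not overlap in any panel, as the choice of the genes fixes, and 0 of 14952 genes passed the test.

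Over the lists, few members parted the 4 upper from the 4 lower lines. In the mucin and mucosal surface list 6 of 18 tested members had all upper lines above (background 1.34%), namely CEACAM1, CEACAM5, CEACAM6, AGR3, MUC5AC and MUC5B. The first 4 of these had passed the filter only through the upper lines and so had to be higher there. CEACAM6, a surface adhesion molecule, had line means of 9.03, 6.43, 0.09 and 4.30, against -0.32 to -0.12. In the list of epithelial adhesion and junctions the median difference was 0.93, against -0.04 over all tested genes. Only H1437 and H358 stood above the lower lines in list medians, at 1.83 and 1.6. H23 and A549, at -0.33 and -0.45, lay within the range of the lower lines, -0.45 to 0.55. Of the 24 members of this list, 0 parted the groups. KRT18 (0.82, 0.95, 1.07 and 0.28, against -5.61 to -0.02) was the 1 keratin of 8, and EHF, an epithelial ETS factor that passed the filter only through the upper lines, the 1 of 15 transcription and splicing factors. In the list of transition factors 1 of 15 did so, SNAI1 (Snail), at 0.07, 0.08, 0.86 and 0.33 in the upper and -0.43 to 0.03 in the lower lines, so higher in the upper lines. Of 30 interferon-stimulated genes 0 lay above and 1, IFI35, below.

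The second question was whether the groups responded alike to Matrigel, measured as the 3D minus 2D difference of each line, which the score did not use. Between the groups 0 of 14954 genes passed (0% called; limma with Benjamini-Hochberg adjustment, smallest adjusted p = 0.0747), and 997 had an unadjusted p under 0.05, 682 higher and 315 lower in the upper lines. All upper lines lay above all lower lines in 421 genes (2.82%) and below in 163 (1.09%), so 72.1% of the genes without overlap were higher in the upper lines. With array medians subtracted the counts were 387 and 183 (67.9%), and after quantile normalization 334 and 207 (61.7%). The median difference over all tested genes was 0.07, from a median response of 0.04 in the upper and -0.03 in the lower lines. Within a group of 4 lines, 3D against 2D, 0 genes passed in the upper lines (0%; limma smallest adjusted p = 0.177, 2599 at an unadjusted p under 0.05) and 0 in the lower lines (0%; 0.26 and 2221). A threshold missed in both groups says nothing of whether they act alike. The genes named next did not overlap between the groups and were not called, with an adjusted p of 0.705 in every case but NFATC1.

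NFATC1, a transcription factor released into the nucleus by calcineurin, had the smallest p (unadjusted p = 4.99e-06, limma adjusted p = 0.0747). It read -1.73 in 3D and -2.57 in 2D in H1437, -0.97 and -1.98 in H358, 1.35 and 0.57 in H23, and 0.79 and 0.04 in A549. In the lower lines it read -0.46 and -0.05 in H661, 2.02 and 2.56 in A427, -1.42 and -0.95 in H460, and 3.09 and 3.58 in H1703. It was higher in 3D in 4 of 4 upper lines and lower in 4 of 4 lower lines, although its levels overlapped widely. The 3D minus 2D difference was 0.84 ± 0.12 in the upper and -0.48 ± 0.06 in the lower lines (SD, n = 4 each), a gap of 1.32 (SE 0.14). The gene's other probe sets gave gaps of 0.65, 0.32, 0.13 and 0.06, so the size rests on 1 probe set, whose suffix s marks probes shared by several transcripts. Without any filter on low values the gene passed (limma adjusted p = 0.0114), and it did so in no other setting.

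ERRFI1, the feedback inhibitor of ERBB receptors known as MIG6, had 0.39 in 3D and -0.50 in 2D in H1437, 0.62 and -0.64 in H358, 1.07 and 0.32 in H23, and -0.42 and -1.53 in A549. Among the lower lines it had -2.03 and -1.80 in H661, 0.83 and 0.70 in A427, -1.85 and -1.59 in H460, and 0.33 and 0.41 in H1703. Its difference was 1.0 ± 0.23 in the upper lines and -0.11 ± 0.18 in the lower lines, a gap of 1.11 (SE 0.20). The receptor gene ERBB3 itself had 0.56, 2.07, 1.69 and 2.65, against -1.70, 0.61, -0.06 and 0.60, with H1437 below A427 and H1703 (gap 1.88, limma adjusted p = 0.721, 1.84 on a second probe set). RHEBL1, a GTPase that activates mTORC1, differed by 2.11 (SE 0.36, 1.14 on a second probe set), from 0.72 ± 0.13 in the upper and -1.39 ± 0.84 in the lower lines. TRIB3, a pseudokinase induced by the integrated stress response, differed by 1.38 (SE 0.30) and by 1.51 on a second probe set.

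The remaining named genes with higher responses were ATP11A, a phospholipid flippase (1.23, with other probe sets between -0.18 and 0.75), HOXD13 (0.95), the antiviral cofactor KHNYN (0.91), DHRSX (0.78), CEP170B (0.70), TP53I11 (1.04), the mucin gene MUC3A (0.60) and ZCCHC8, a subunit of the nuclear exosome targeting complex (0.80). For ZCCHC8 the upper lines stayed near 0, between -0.01 and 0.21, and the lower lines lay between -1.05 and -0.39. ATP11A had opposite signs in the groups, at 0.68 ± 0.23 in the upper and -0.55 ± 0.30 in the lower lines.

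SNAI2, the gene of the E-cadherin repressor Slug, was among the lower responses. Its arrays read -0.57 in 3D and 0.55 in 2D in H1437, 5.80 and 6.41 in H358, -0.34 and 0.02 in H23, and 3.59 and 4.14 in A549. In the lower lines they read -0.51 and -0.63 in H661, -0.25 and -0.58 in A427, 3.92 and 3.27 in H460, and -0.33 and -0.41 in H1703. The 3D array was below the 2D array in 4 of 4 upper lines and above it in 4 of 4 lower lines, and the gap was -0.95 (SE 0.21, limma adjusted p = 0.705). ZEB1 had -1.22, -0.90, -1.0 and -1.29 in the upper lines, against -0.38, -0.05, -0.91 and -0.42 in the lower lines, with an overlap of H358 and H460 (gap -0.66, limma adjusted p = 0.739). In the same arrays VIM had 0.00 in H1437, where both cultures were at the lowest value of the data, -0.66 in H358, and between -0.27 and 0.19 elsewhere.

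Other genes with lower responses were EHBP1, an adaptor of endocytic traffic (-1.24 ± 0.38 in the upper and -0.14 ± 0.21 in the lower lines), the glutathione synthesis gene GCLC (gap -0.84), the mitochondrial thiolase ACAA2 (-1.16), the Rag GTPase gene RRAGB (-0.79), ATPSCKMT (-0.91), the collagen gene COL9A3 (-0.95), TAF15 (-0.74), ZNF891 (-0.97), ALDH5A1 (-0.71), TMEM267 (-0.61) and MELTF (-1.62). Several of these rest on 1 probe set. Other probe sets gave -0.06 and -0.10 for GCLC, 0.24 and -0.09 for ACAA2, -0.80 to 0.17 for TAF15, and -0.90 to -0.18 for MELTF. ID1 and ID2, inhibitors of helix-loop-helix factors and targets of BMP signalling, lay lower in the upper lines without overlap. ID1 had -1.22, -1.65, -0.73 and -0.52, against 0.95, -0.24, 0.46 and -0.41 (gap -1.22, limma adjusted p = 0.705). ID2 had -0.88, -0.47, -2.69 and -0.23, against 2.02, 0.19, 0.48 and 0.70 (gap -1.91, limma adjusted p = 0.705, -1.90 on a second probe set). ID3 had a gap of -0.86 with overlap, and over the TGF-beta and BMP list 2 of 27 members lay below and 0 above, against 1.09% and 2.82% of all genes tested.

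**Figure D4:**
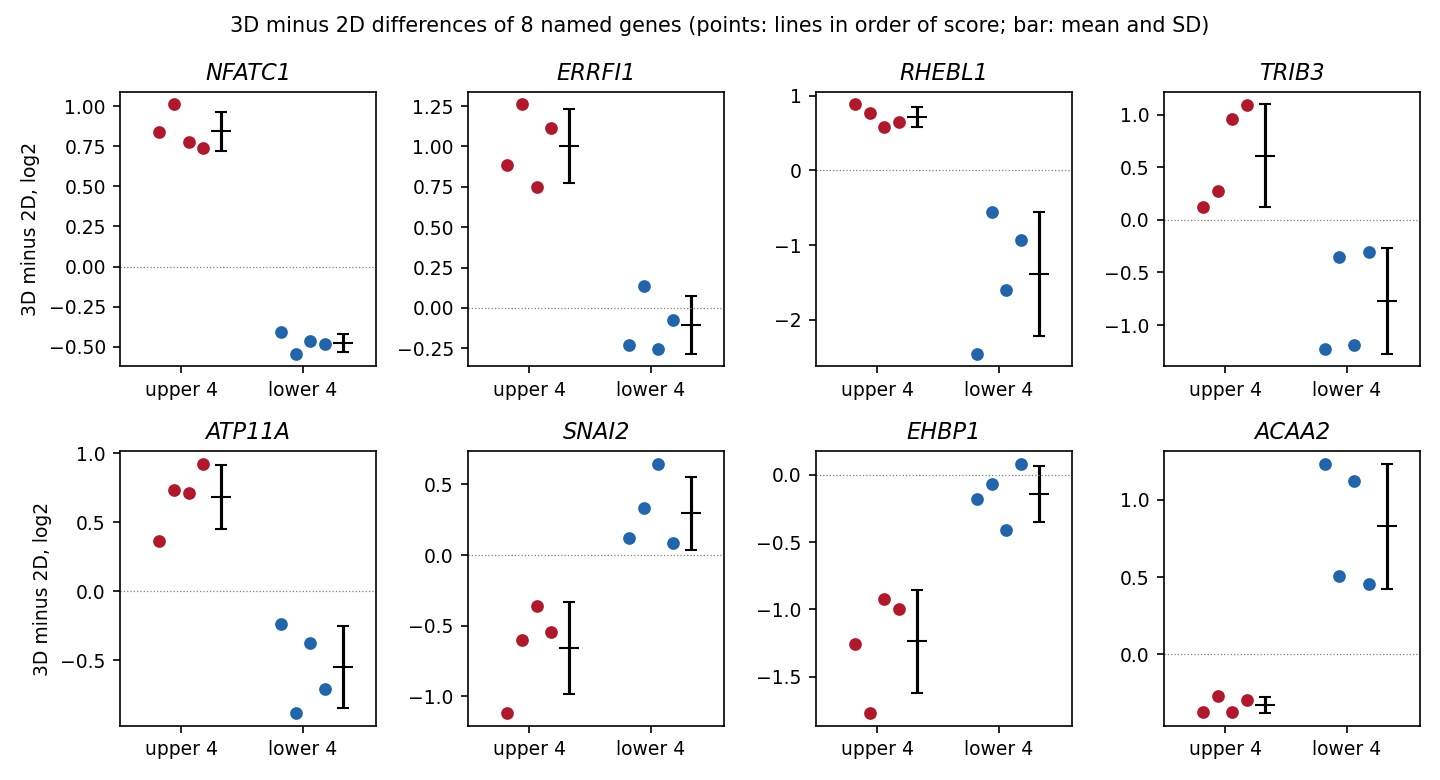
The 3D minus 2D difference (log2, y axis, scaled per panel) of 8 named genes in the upper (red, left) and lower lines (blue, right). Points are lines in order of score, and black bars give the mean and SD of 4 lines. The groups do not overlap in any panel, as the choice of the genes fixes, and the SDs of NFATC1 are 0.12 and 0.06.

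Interferon-stimulated genes had higher 3D minus 2D values in the upper lines, with 0 of 30 members called. The median 3D minus 2D difference over 30 tested members was 0.57 in H1437, 1.23 in H358, 0.18 in H23 and 0.41 in A549, against 0.00 in H661, 0.12 in A427, 0.08 in H460 and -0.07 in H1703. The medians of the groups did not overlap, and H23 was the upper line nearest to the lower ones. Without a filter 28 of 31 members (90.3%) had a higher mean response in the upper lines, against 61% of all 19775 genes. ISG20, an interferon-induced exonuclease, had 2.24, 1.16, 1.04 and 2.11 in the upper lines, against -0.85, 0.42, 0.11 and -0.21 in the lower lines (gap 1.77, limma adjusted p = 0.705, 1.58 on a second probe set). OAS1 had 0.76, 2.14, 0.90 and 0.46, against -0.10 to 0.08, and MX1 had 1.02, 3.10, 0.13 and 0.37, against -0.28 to 0.08. These were the 3 of 30 members with all upper lines above (background 2.82%). IRF9, a subunit of the interferon-activated factor ISGF3, had a gap of 1.09 with overlap.

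Mucosal surface genes showed the largest list median in the upper lines, 1.09, against 0.07 in the lower lines. All 20 members with a probe set had a higher mean response in the upper lines, against 61% of all 19775 genes. Of these members, 5 had passed the filter on low values only through arrays of upper lines. The difference came from 2 lines, since the list medians were 1.67 in H358 and 2.67 in A549 but 0.14 in H1437 and 0.12 in H23, against 0.01 to 0.12 in the lower lines. CEACAM6 went to 7.91 in 3D in A549, against 0.69 in 2D, and to 8.91 in 3D in H358, against 3.94 in 2D, while H1437 stood at 8.82 in 3D and 9.23 in 2D. CEACAM1 had 1.81, 1.68, 2.32 and 5.75, against -0.01 to 0.07. With MUC16 it was 1 of 2 members with all upper lines above (2.82% of all genes tested). Both genes had passed the filter on low values only through arrays of upper lines, so this count is a description and no support. Among the lower lines CEACAM6 was below its reference in 8 of 8 arrays.

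Chemokines and matrix-facing genes gave single members. CXCL8, the neutrophil chemokine interleukin 8, had 1.13, 0.97, 1.28 and 2.99, against -1.34, -0.15, -2.32 and 0.08 (gap 2.52, limma adjusted p = 0.705, 1.88 on a second probe set), and it was the 1 of 20 chemokines and cytokines without overlap (2.82% of all genes lay above). ABCA3, the surfactant lipid transporter of alveolar type II cells, had 0.56, 1.29, 0.79 and 0.98, against -0.63 to 0.46. The integrin gene ITGA3, a laminin receptor subunit, had 0.17, 0.63, 0.36 and 1.20, against -1.06 to 0.08. MMP15, a membrane-type metalloproteinase, had a gap of 1.19 (-0.15 on a second probe set) and COL5A2, a fibrillar collagen, of 1.57 (1.25 on a second probe set). CNN3, an actin-binding calponin, had -0.69, -2.02, -1.18 and -1.26, against -0.46 to 0.63. The 1 junction gene of 24 without overlap was CLDN4 (0.27, 0.38, 0.20 and 0.16, against -0.53 to 0.02), and SPINT1 was the 1 of 10 serine proteases and inhibitors. Against the share of 2.82% over all genes, a count of 1 is no result about any of these lists.

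The medians of other lists were not tested against each other. DNA replication genes had a median response of -0.43 in the upper and -0.47 in the lower lines, with 0 of 30 members without overlap, and the medians of single lines ran from -0.75 to -0.13 and from -0.82 to -0.23. Mitosis genes had -0.55 and -0.53, with A427 alone above 0 at 0.07, and TOP2A, the topoisomerase of dividing cells, was the 1 of 28 members without overlap (gap -0.48, with 1.09% of all genes below). Hypoxia response genes had 0.76 and 0.42, and BNIP3L, a mitophagy receptor, was lower in the upper lines (0.89 to 0.97) than in the lower lines (1.11 to 1.97). Of the glycolysis genes PGK1 and TPI1 had differences of -0.71 and -0.53, although 2 other probe sets of TPI1 gave -0.11 and -0.05. Epithelial adhesion genes had medians of 0.22 and 0.01 and transition factors of 0.01 and -0.04.

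**Figure D5:**
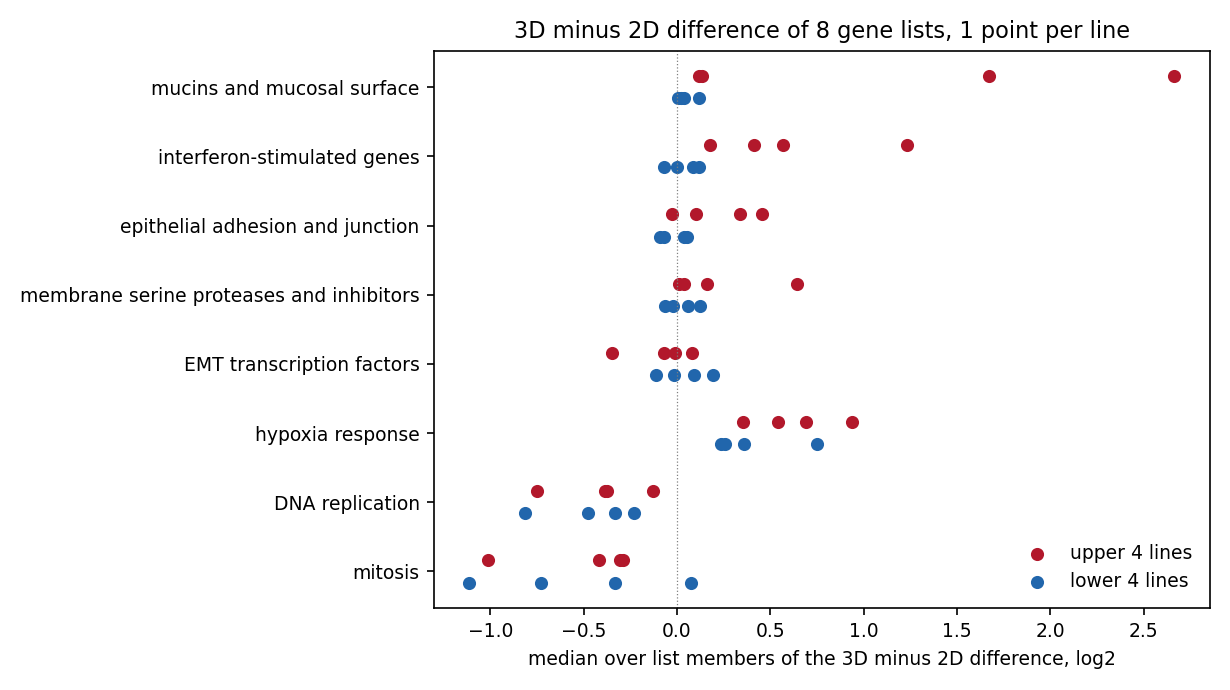
The median over list members of the 3D minus 2D difference (log2, x axis) for 8 gene lists (y axis), 1 point per line, red for the upper and blue for the lower lines. In the mucin list 2 red points stand at 1.67 and 2.67, in the interferon list all 4 red points lie right of the blue ones, and the replication and mitosis lists overlap.

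Measures of the arrays themselves were compared in the same way. The 18S rRNA control probe sets had a 3D minus 2D difference of -1.33 ± 1.47 in the upper and -0.97 ± 0.63 in the lower lines (SD, n = 4 each, two-sided exact permutation p = 0.83 over 70 splits, where the smallest possible is 0.0286), and H23 had the lowest value, -3.45. Their line means were 0.18 ± 0.47 and 0.03 ± 0.28 (exact permutation p = 0.629). The 16 array medians spanned -0.28 to -0.07, with exact permutation p-values of 0.457 for line means and 0.543 for differences. All 4 tests had an adjusted p of 0.83. With the 18S difference as a covariate 0 genes passed between the groups on 3D minus 2D values, and the gap of NFATC1 was 1.32 (limma adjusted p = 0.237). Markers of leukocytes, endothelium and fibroblasts had few tested members, 4 of 7, 2 of 5 and 6 of 6, and 0 of them had all upper lines above or below the lower lines. In H1437 and H358, 3 of the 6 fibroblast and 1 of the 4 leukocyte markers were lower than in the other 6 lines, against 9.17% of all genes without a filter. The margins to the nearest line were small. PTPRC had -0.020 and -0.079, against -0.018 upward, and PDGFRB -0.135 and -0.075, against -0.023 upward. COL1A1 had -0.116 and -0.183, against -0.071 upward, and COL3A1 -1.618 and -1.152, against -0.96 upward. A count of 1 of 4 is no result about leukocyte markers.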

How the data were processed

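Total RNA (200 ng) of 8 lung cancer lines in 3D and 2D culture was hybridised to U133 Plus 2.0 arrays, per the labels' protocols. The deposited table holds, for 54675 probe sets, log2 ratios of each array to a per-probe-set reference, which equals the median of the 16 arrays for 63.5% of probe sets and lies above it for 36.5%. For the software and normalisation behind it: not given in the sources used here. The lowest value, -6.64, was reached 297 times.

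Probe sets with 1 symbol in the platform annotation (41097) gave 19775 genes, each represented by the probe set with the highest mean. Genes at or above the reference (tolerance 0.001) in 4 of 16 arrays were kept, 14954 in all. Line means and 3D minus 2D differences were compared, 4 against 4 lines, with limma 3.58.1 in R 4.3.3 (trended variance, Benjamini-Hochberg, threshold 0.05). Such p-values measure the spread between lines, since each line has 1 array per culture. Single array measures used a two-sided exact permutation test. Scripts were tested on simulated data with the spread of the real lines. For line means, 8.96%, 55.2% and 47% of genes with a set log2 change of 1, 2 and 4 were called. For 3D minus 2D differences, 37.3%, 73.1% and 87.9% were called. Many real differences could thus be missed, and a count of 0 called genes does not show that the groups are alike.

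The groups and gene lists were chosen with earlier results of these data known. Genes were named, among those without overlap between groups, as the 12 with the smallest p in each direction (11 for lower line means, and no Y-linked gene is named), plus up to 5 members per list. Further list members were picked for mention with their values in view. Promoter sequences come from RefSeq (GRCh38.p14). Alternatives covered scaling, filter, probe set choice, variance model, grouping and leaving out lines.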

Additional observations from a re-analysis of the deposited data

Results flagged for a closer look

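In 8 of 108 groups of 4 lines checked, 1 line stood apart from the other 3 (gap over range above Dixon's critical value for 4 values), and chance gives about 5%. In line means, H23 had CDC25C at -0.23, with the other upper lines between -0.47 and -0.46. A427 had CFAP300 at 2.27, with the other lower lines between 0.55 and 0.68, and H661 had ZNF564 at 0.36, with the others between 0.10 and 0.13.

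In 3D minus 2D differences, the upper line H358 had KHNYN at 0.99 (others 0.58 to 0.63) and VIM at -0.66 (others -0.05 to 0.06), and A549 had GCLC at -0.54 (others -0.30 to -0.29). The lower line H661 had MUC3A at -0.40 (others -0.26 to -0.25) and ZNF891 at 0 (others 0.36 to 0.43).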

How the results depend on the processing

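Between the groups the counts of 0 called genes held under most settings, including each line left out in turn (0 genes each time). Without a filter, 1 gene passed between the groups on 3D minus 2D values and 1 within the upper lines, NFATC1 in both cases (1.32, adjusted p = 0.0114, and 0.84, adjusted p = 0.0245, limma). With the probe set of largest SD, or without suffixes s and x, 1 gene passed on line means, VAV3 (5.60 and 5.10). Without the variance trend, 45 genes passed within the upper lines and 1, BNIP3L (1.52), within the lower lines. Chosen after seeing the data, H1437 and H358 against the other 6 lines gave 123 genes on line means (102 higher, 21 lower) and 0 on differences (1203 at an unadjusted p under 0.05), and leaving out A549 and H23 gave 4 and 0 (1274). ATP11A turned to -0.18 and ACAA2 to 0.24 without suffixes s and x. The cause was not tested. Leaving out 1 line gave 579 to 939 genes above and 266 to 405 below without overlap on differences, and 296 to 486 and 355 to 858 on line means, since fewer lines overlap less. With 1 array per line and culture, differences of dim probe sets are the least certain.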

Other observations

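In the comparison of H1437 and H358 with the other 6 lines, added after the data were seen, 16 of 598 list members passed on line means (2.68%; limma, Benjamini-Hochberg), against 123 of 14952 genes (0.823%). The differences of RAB25 (8.71), KRT4, a keratin of mucosal epithelia (5.49), PRSS8 (6.68) and GRHL2 (2.60) are a description, since these 4 genes had passed the filter through the arrays of H1437 and H358 alone. They count among the 16, as do AGR3 and CEACAM5, which had passed only through arrays of the 4 upper lines. The share of 2.68% is therefore a description too. The epithelial factor OVOL2 was higher by 5.19, the receptor ERBB3 by 6.37, the adhesion gene NECTIN4 by 2.52, MX1 by 4.82 and OAS2 by 3.11. FGF2, a fibroblast growth factor, was lower, at -4.50. The comparison follows the largest step in the score, so these values describe 2 lines.

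VAV3 had line means of 3.90 in H1437, 4.06 in H358, 1.04 in H23 and 3.31 in A549, against -0.51, -0.18, -0.27 and -0.04 in H661, A427, H460 and H1703. The groups did not overlap, and the difference of 3.33 had a limma adjusted p of 0.822.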
